A study of Mus musculus with 6 samples.

Results

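The 10 cathepsin genes Ctsa, Ctsb, Ctsc, Ctsd, Ctsf, Ctsh, Ctsk, Ctsl, Ctss and Ctsz were described in RNA sequencing of mouse RPE-choroid, the retinal pigment epithelium (RPE) with the vascular choroid beneath it. They were chosen by symbol, as lysosomal cathepsins of RPE and phagocytes. All 10 were found among 15663 listed genes, and all 10 passed the minimum of more than 50 counts in at least 2 samples, which left 13454 genes for testing. The libraries came from 3 control mice, which were untreated, and 3 mice with subretinal fibrosis (SRF). All were labelled C57BL/6, given as C57BL/6J males aged 8 to 10 weeks in the study's methods, and the labels name no transgene or deletion. In SRF mice each eye received 4 laser burns, each lesion was burned again 10 days later, and RNA was extracted another 20 days after that. The control mice were not lasered, so the burn itself and the fibrosis that followed cannot be told apart. The labels name no dissection of lesions, so each SRF library stands for RPE-choroid as a whole.

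Cathepsins are the main proteases of the lysosome. They are made as inactive precursors, carried to the lysosome largely by mannose 6-phosphate receptors and activated there at acid pH. In the RPE they digest the photoreceptor outer segments that these cells take up each day, and in macrophages they process ingested proteins and antigens. Outside the cell several of them cut collagen, elastin and proteoglycans. Cathepsins B, C, F, H, K, L, S and Z (Ctsb, Ctsc, Ctsf, Ctsh, Ctsk, Ctsl, Ctss and Ctsz) are cysteine proteases. Cathepsin D (Ctsd) is an aspartic protease and cathepsin A (Ctsa) is a serine carboxypeptidase.

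The genes lie on 7 chromosomes of GRCm38 in the GENCODE M21 annotation. Ctss (ENSMUSG00000038642, chr3:95526786-95556403) and Ctsk (ENSMUSG00000028111, chr3:95499256-95509362) are neighbours on the plus strand. Chromosome 2 holds Ctsa (ENSMUSG00000017760, chr2:164832873-164841032, plus strand) and Ctsz (ENSMUSG00000016256, chr2:174427493-174439039, minus strand). Chromosome 7 holds Ctsc (ENSMUSG00000030560, chr7:88278085-88310888, plus strand) and Ctsd (ENSMUSG00000007891, chr7:142375911-142388038, minus strand). Ctsb (ENSMUSG00000021939), Ctsf (ENSMUSG00000083282) and Ctsh (ENSMUSG00000032359) lie on the plus strand at chr14:63122462-63145923, chr19:4855130-4860918 and chr9:90054152-90076089. Ctsl (ENSMUSG00000021477) lies on the minus strand at chr13:64359337-64370890. The promoter windows of 4 cathepsins follow. Windows of 300 bases, from 250 bases before the transcription start to 50 bases after it, were available for 8 of the 10 genes in RefSeq on GRCm38.p6, and not for Ctsb and Ctsh. Ctss and its neighbour Ctsk are shown because they had the largest fold changes of the family and lie side by side on chromosome 3. Ctsd and the second start site of Ctsa are shown because both hold more than 1 copy of the E-box letters CACGTG, the core bound by the lysosomal regulator TFEB. Capitals mark CACGTG with its GTCACGTG extension, which holds CACGTG, and AGGAAGT, the core bound by the macrophage factor PU.1, on either strand.
Ctss, chr3:95526536-95526835, plus strand: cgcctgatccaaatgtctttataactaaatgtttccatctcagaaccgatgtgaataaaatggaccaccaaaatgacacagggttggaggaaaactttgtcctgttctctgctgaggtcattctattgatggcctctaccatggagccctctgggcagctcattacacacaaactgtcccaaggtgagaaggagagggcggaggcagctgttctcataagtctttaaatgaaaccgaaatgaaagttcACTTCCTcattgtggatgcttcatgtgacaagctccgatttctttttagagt
Ctsk, chr3:95498960-95499259, plus strand: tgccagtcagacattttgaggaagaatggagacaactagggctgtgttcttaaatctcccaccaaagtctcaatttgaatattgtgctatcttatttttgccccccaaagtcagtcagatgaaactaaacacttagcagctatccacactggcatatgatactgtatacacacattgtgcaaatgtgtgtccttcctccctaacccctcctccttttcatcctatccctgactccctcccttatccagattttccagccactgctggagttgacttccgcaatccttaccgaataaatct
Ctsd, chr7:142387778-142388077, minus strand: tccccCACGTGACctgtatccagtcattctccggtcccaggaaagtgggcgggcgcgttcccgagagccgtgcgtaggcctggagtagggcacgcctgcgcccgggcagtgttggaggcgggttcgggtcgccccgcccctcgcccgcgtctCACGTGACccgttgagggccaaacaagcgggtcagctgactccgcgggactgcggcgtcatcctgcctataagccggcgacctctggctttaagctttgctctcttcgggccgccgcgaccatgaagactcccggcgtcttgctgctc
Ctsa, chr2:164833523-164833822, plus strand: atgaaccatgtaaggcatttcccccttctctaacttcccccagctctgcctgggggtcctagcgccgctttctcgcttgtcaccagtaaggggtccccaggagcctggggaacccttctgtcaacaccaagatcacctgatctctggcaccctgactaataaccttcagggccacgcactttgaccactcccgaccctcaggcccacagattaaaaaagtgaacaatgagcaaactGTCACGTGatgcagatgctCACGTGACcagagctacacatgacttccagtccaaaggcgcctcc

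In Ctss the AGGAAGT letters lay on the minus strand, beginning 2 bases before the start site and running over it. Of the 8 cathepsins with a window, Ctss and Ctsc held AGGAAGT, against 9.35% of all 32851 windows in the RefSeq table. CACGTG was found in 4 of 8, Ctsa, Ctsd, Ctsf and Ctsl, against 7.15% of all windows. The longer GTCACGTG was found in Ctsa and Ctsd, against 2.25%. Ctsa had 2 windows, so by window the counts were 2 of 9 for AGGAAGT, 4 of 9 for CACGTG and 2 of 9 for GTCACGTG. The AP-1 letters TGANTCA were found in none of the 8 and in 7.81% of all windows. These are matches of letters only, and binding was not measured.

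Before the groups were compared, 2 libraries were seen to stand apart, 1 in each group. The mean level of 15 photoreceptor genes was 8.53 log2 CPM (counts scaled to a common library size) in control mouse 1 and 8.51 in SRF mouse 3, and between 4.34 and 5.71 in the other 4. Photoreceptors belong to the retina and not to the RPE-choroid. Control mouse 1 was also the library with the fewest counts, 13667310, where the other 5 held between 17536248 and 24356023. It was the lowest of the 6 libraries in TMM-normalized CPM for 9 of the 10 cathepsins, so values without these libraries are given below where they differ. All 15 RPE markers and all 6 endothelial markers passed the count minimum. Endothelial markers had a median log2 fold change of 0.03, from -0.03 for Tek to 0.25 for Cdh5. The photoreceptor markers ranged from -0.28 for Cnga1 to 0.41 for Arr3, and the 6 fibroblast markers from 0.19 for Pdgfra to 0.64 for Col3a1. edgeR and DESeq2 called no gene of these 3 lists, and Col3a1 alone had an unadjusted p under 0.05. The RPE markers summed to between 54317 and 63363 CPM in controls and between 39058 and 48921 CPM in SRF.

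Ctss, which encodes cathepsin S, was the cathepsin that differed most between the groups. Cathepsin S stays active at neutral pH, degrades elastin and cuts the invariant chain of MHC class II in antigen-presenting cells. Its deposited level was 125, 127.91 and 138.98 FPKM, a fragment count scaled to transcript length and library size, in control mice 1, 2 and 3. In SRF mice 1, 2 and 3 it was 334.25, 512.17 and 394.53 FPKM. Every SRF mouse lay above every control mouse, and the gap between the groups was wider than the range of either group. The mean was 131 ± 7.38 FPKM (SD, n = 3) in controls and 414 ± 90.5 FPKM (n = 3) in SRF, and the SRF mice differed from each other more than the controls did. In TMM-normalized CPM the means were 180 ± 9.82 and 552 ± 117, a ratio of 3.06, from between 2316 and 12174 counts per library.

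The fold change of Ctss was 1.61 on the log2 scale (SE 0.17), which ranked 17 from the highest among 13454 tested genes. By edgeR's quasi-likelihood test its unadjusted p was 3.16e-05, which ranked 4 from the smallest. After Benjamini-Hochberg adjustment over all tested genes it was 0.106, so Ctss did not pass the threshold of 0.05. edgeR called 0 of the 13454 genes (0%) at an adjusted p under 0.05 with a change of 0.5 or more on the log2 scale. The smallest adjusted p was 0.0504, and 943 genes had an unadjusted p under 0.05. DESeq2 on the same genes called 153 (1.14% of those with an adjusted p), Ctss among them (log2 fold change 1.61, adjusted p = 2.04e-15). Without control mouse 1 and SRF mouse 3, edgeR also called Ctss (log2 fold change 1.61, SE 0.19, adjusted p = 0.0117). Over all settings tried the log2 fold change of Ctss lay between 1.43 and 1.74, with adjusted p between 2.29e-22 and 0.898.

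Ctsk, the collagen-degrading cathepsin best known from osteoclasts, had the next largest fold change but did not pass either test. It measured 22.2, 34.7 and 62.71 FPKM in control mice 1, 2 and 3, and 48.07, 64.81 and 67.3 FPKM in SRF mice 1, 2 and 3. Control mouse 3 lay within the SRF range, and the lowest and highest controls lay further apart than the 2 group means. The log2 fold change was 0.54 (SE 0.36, adjusted p = 0.894, edgeR). It was 0.16 (SE 0.25) without the photoreceptor-rich libraries, and 1.02 without control mouse 3, where DESeq2 called it (adjusted p = 0.0283, the lowest over all settings, which reached up to 1). The summed CPM of 6 fibroblast markers was likewise lowest in control mouse 1 (4315) and highest in SRF mouse 3 (11036), with 10072 in control mouse 3. Most of that sum was Dcn, 2634 CPM in control mouse 1 and 7261 in SRF mouse 3. Col1a1, Col1a2 and Col3a1 were instead highest in SRF mouse 2, at 1822, 1571 and 577 CPM. The part of fibroblast RNA in the spread of Ctsk was not tested. Of the osteoclast markers, Ocstamp, Dcstamp and Calcr were not listed or were under the count minimum. Of the 3 tested, Mmp9 (log2 fold change 0.01, SE 0.69) and Itgb3 (0.08, SE 0.27) were not called. Acp5, which macrophages also express, rose in DESeq2 (edgeR log2 fold change 0.87, SE 0.14, DESeq2 adjusted p = 0.000918, edgeR adjusted p = 0.198).

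**Figure D1:**
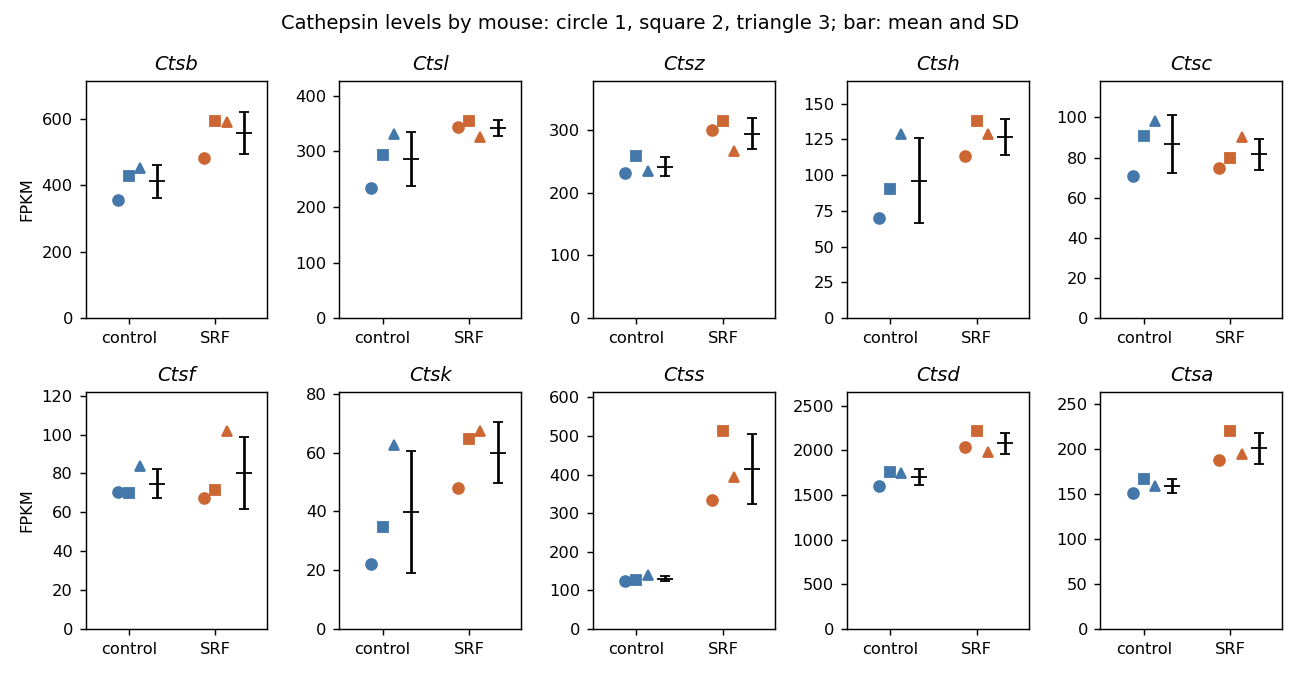
Deposited FPKM of each cathepsin in each mouse, on axes that start at 0. Circles, squares and triangles are mice 1, 2 and 3 of each group, and bars are the mean and SD of 3 mice; Ctss lay between 125 and 138.98 in controls and between 334.25 and 512.17 in SRF.

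The remaining cysteine cathepsins showed small differences or none that exceeded the spread between mice. Ctsb, an abundant endopeptidase that also trims proteins from their carboxyl end, measured 355.93, 427.25 and 451.04 FPKM in controls and 482.87, 594.04 and 590.73 FPKM in SRF. The groups did not overlap, with a log2 fold change of 0.39 (SE 0.14, unadjusted p = 0.0296, adjusted p = 0.609, edgeR). Without the photoreceptor-rich libraries the log2 fold change of Ctsb was 0.24 and the unadjusted p was 0.127. Ctsz, a carboxypeptidase, measured 230.82, 258.56 and 234.17 FPKM in controls and 299.79, 315.1 and 267 FPKM in SRF. Its groups did not overlap either, with a log2 fold change of 0.24 (SE 0.12, adjusted p = 0.780, edgeR). In CPM that gap was thin, 382 in SRF mouse 3 against the same rounded value in control mouse 2.

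Ctsl, Ctsh, Ctsc and Ctsf overlapped between the groups. Ctsl, a broad lysosomal endopeptidase, was 286 ± 49.0 FPKM in controls and 342 ± 14.6 FPKM in SRF (log2 fold change 0.17, SE 0.14), and its log2 fold change was 0.07 without the photoreceptor-rich libraries. Ctsh, an aminopeptidase, was 96.3 ± 29.6 and 127 ± 12.5 FPKM (0.38, SE 0.23), and the log2 fold change was 0.16 without the photoreceptor-rich libraries. Ctsf was 74.8 ± 7.61 and 80.3 ± 18.7 FPKM (0.05, SE 0.18). Its highest value, 101.73 FPKM, was in SRF mouse 3, and without that mouse its log2 fold change was -0.16, the reverse direction. Ctsc, a dipeptidyl peptidase that activates granule serine proteases, was the only cathepsin of the 10 with a lower mean in SRF, 86.6 ± 14.3 against 81.6 ± 7.81 FPKM (-0.12, SE 0.16, adjusted p = 0.999, edgeR). Without the photoreceptor-rich libraries the log2 fold change of Ctsc was -0.34 (SE 0.13, unadjusted p = 0.0253, adjusted p = 0.231, edgeR), and with 1 mouse left out it lay between -0.26 and -0.02. None of these 4 genes had an unadjusted p under 0.05 in edgeR on all 6 libraries, while Ctsh without control mouse 3 had one (log2 fold change 0.63, unadjusted p = 0.0144, adjusted p = 0.630).

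Ctsd, the aspartic cathepsin through which the RPE degrades rhodopsin and other outer segment proteins, was by far the most abundant. It measured 1602.76, 1757.68 and 1750.92 FPKM in controls and 2040.27, 2213.2 and 1984.16 FPKM in SRF. All SRF mice lay above all controls, with a log2 fold change of 0.24 (SE 0.10, unadjusted p = 0.0516, adjusted p = 0.721, edgeR). Ctsa, which besides its own peptidase activity shields neuraminidase 1 and beta-galactosidase in the lysosome, measured 150.61, 166.43 and 158.67 FPKM in controls and 187.19, 219.23 and 194.21 FPKM in SRF. These groups did not overlap, and the log2 fold change was 0.28 (SE 0.11, unadjusted p = 0.0339, adjusted p = 0.637, edgeR). With the photoreceptor-rich libraries left out, the unadjusted p of Ctsa was 0.0671.

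**Figure D2:**
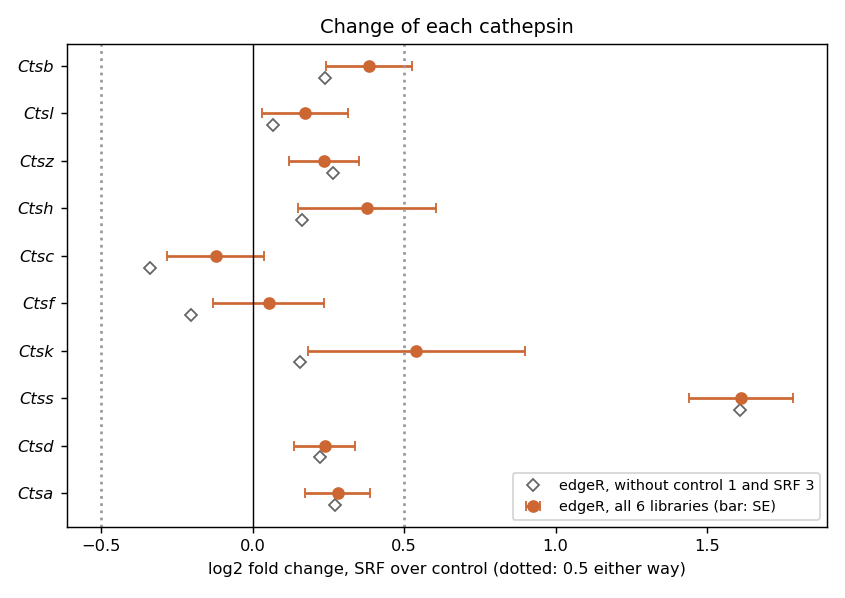
Log2 fold change of each cathepsin, SRF over control, from edgeR. Filled points with bars are estimates and SE from all 6 libraries, open diamonds leave out control mouse 1 and SRF mouse 3, and dotted lines mark 0.5 either way; Ctss stood at 1.61 in both and the others lay between -0.12 and 0.54 with all libraries.

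As a family, 9 of 10 cathepsins had a higher fitted level in SRF, against 50.3% of all tested genes. Their median log2 fold change was 0.26, beside 0.00 over all tested genes. In 5 of 10, Ctsa, Ctsb, Ctsd, Ctss and Ctsz, the SRF libraries lay wholly above the controls in CPM, where 6.71% of all genes did so. An unadjusted p under 0.05 with a higher level was found for 3 of 10, Ctss, Ctsb and Ctsa, against 4.16% of all genes. The 3 became 1, Ctss, when control mouse 1, control mouse 2 or SRF mouse 2 was left out of the edgeR fit, 2 without SRF mouse 1, and 4 when control mouse 3 or SRF mouse 3 was left out. The background moved too. In either direction, 943 of 13454 genes had such a p with all 6 libraries, 446 without SRF mouse 2 and 1716 without SRF mouse 3. Without both photoreceptor-rich libraries, 8 of 10 had a higher fitted level, the median was 0.19, and an unadjusted p under 0.05 was found for Ctss, higher, and Ctsc, lower. In that fit 2353 of 13454 genes had an unadjusted p under 0.05 in either direction, so 2 of 10 was near the share of all genes. The 10 genes share libraries and cells, so they are not separate observations of the disease.

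The summed FPKM of the 10 cathepsins was 3229 ± 264 in controls and 4233 ± 296 in SRF (n = 3 each), or 0.590% and 0.771% of all FPKM. The groups did not overlap, and the exact permutation test, two-sided, gave p = 0.1, the smallest it can give with 3 against 3. Without Ctss the sum was still higher in every SRF mouse, 3099 ± 258 in controls against 3820 ± 206 FPKM in SRF. Most of that sum was Ctsd, 1704 ± 87.6 and 2079 ± 119 FPKM. Of the difference of 721 FPKM between the means, Ctsd gave 375 and Ctsb 144, and neither gene was called. Bulk tissue gives no cell numbers, so more cells of a type and more RNA per cell cannot be told apart here.

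Levels per length were compared between the genes by FPKM. In controls the order of mean FPKM was Ctsd, Ctsb, Ctsl, Ctsz, Ctsa, Ctss, Ctsh, Ctsc, Ctsf and Ctsk. Of the neighbours in it, Ctsl and Ctsz, Ctss and Ctsh, Ctsh and Ctsc, and Ctsc and Ctsf overlapped in range. In SRF, Ctss stood at place 3 and not at place 6, and its range overlapped those of Ctsb above it and Ctsl below it. The only other overlapping neighbours there were Ctsc and Ctsf. Among all 15663 listed genes, Ctss stood at place 654 by mean FPKM in controls and 137 in SRF, and Ctsd at 27 and 21.

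Ctss made up a larger part of the family in every SRF mouse. Ctss made up 4.26%, 3.86% and 4.04% of the summed cathepsin FPKM in control mice 1, 2 and 3, and 8.37%, 11.2% and 9.52% in SRF mice 1, 2 and 3. The means were 4.05 ± 0.204% and 9.71 ± 1.43%, a difference of 5.65 percentage points (exact permutation test, two-sided, p = 0.1). Ctsd made up 52.9 ± 1.87% and 49.2 ± 1.72%, with overlapping groups. Ctsc was the only member whose share was lower in every SRF mouse, 2.67 ± 0.234% against 1.93 ± 0.219%. Shares within a sum are tied to each other, so a larger part for Ctss lowers the others.

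**Figure D3:**
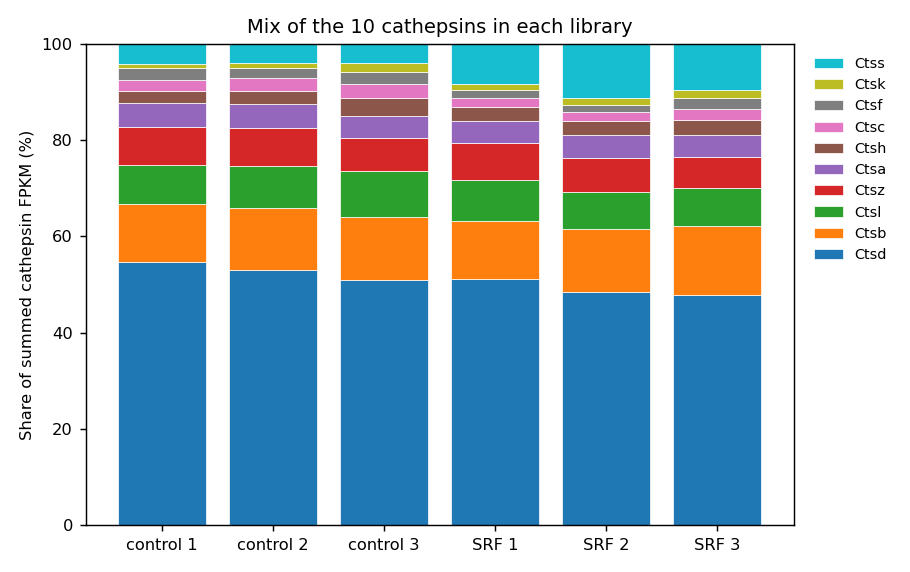
Share of each cathepsin in the summed FPKM of the 10 genes, in percent, for each library. Ctsd filled 47.9% to 54.7% of each bar, and the Ctss segment at the top was 3.86% to 4.26% in controls and 8.37% to 11.2% in SRF.

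Ratios within a library avoid scaling between libraries. The ratio of Ctss to each of the other 9 cathepsins was higher in every SRF mouse than in every control mouse. Of these 9 ratios, the one to Ctsk differed least, 1.91-fold, and the one to Ctsc most, 3.29-fold. The ratios of the other 8 cathepsins to Ctsd all overlapped between the groups, from 0.778-fold for Ctsc to 1.34-fold for Ctsk. Each of the 9 Ctss ratios had p = 0.1 in the exact permutation test, two-sided, the smallest possible, also after Benjamini-Hochberg adjustment over the 9. All 9 hold the same Ctss values, so they restate the difference in Ctss and are not separate tests of it.

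Several markers of macrophages were higher beside Ctss. The 15 macrophage markers summed to between 1474 and 1912 CPM in controls and between 3377 and 4831 CPM in SRF, and 14 of 15 had a higher fitted level. Lyz2 alone gave between 743 and 1004 CPM of that sum in controls and between 2078 and 3305 CPM in SRF. In edgeR 10 of 15 had an unadjusted p under 0.05, all higher, against 4.16% of all genes, but none was called. DESeq2 called 6, C1qb, C1qc, Cd68, Fcer1g, Lyz2 and Tyrobp, where it called 1.14% of all genes in either direction. Lyz2, lysozyme of myeloid cells, had the highest log2 fold change of the list, 1.49 (SE 0.21), and Csf1r, the receptor for macrophage colony-stimulating factor, the lowest, -0.03 (SE 0.11). The ratio of Ctss to Lyz2 overlapped between the groups (1.08-fold, exact permutation p = 0.5). The ratio of Ctss to Cd68, a lysosomal membrane protein of macrophages, did not overlap and was 1.47-fold higher in SRF (exact permutation p = 0.1). Against the complement genes C1qa, C1qb and C1qc the ratio was 1.82-fold, 1.61-fold and 1.70-fold higher, and against Csf1r 3.02-fold. How much of the rise of Ctss went with macrophage RNA was not tested.

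**Figure D4:**
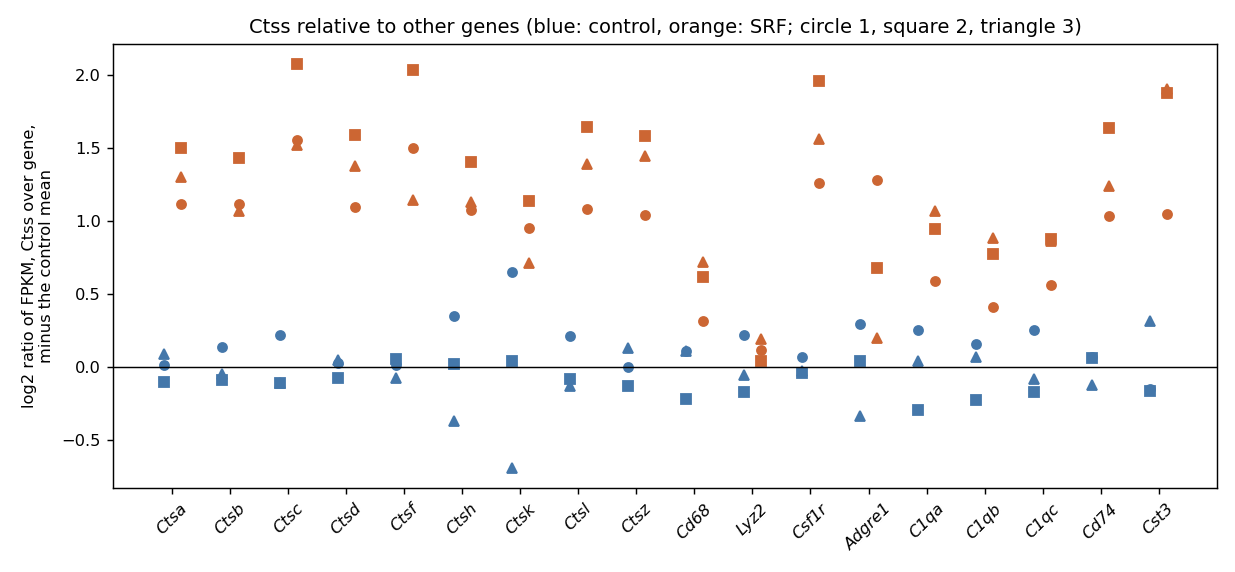
Log2 ratio of Ctss to each gene named below the axis, from FPKM, after subtraction of the control mean of that ratio. Blue points are control and orange points SRF mice, with circles, squares and triangles for mice 1, 2 and 3; the groups overlapped for Lyz2 and Adgre1 and lay apart for the other 16 genes.

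The genes whose pattern over the 6 libraries was most like that of Ctss, by root mean square difference in centred log2 CPM, were Clec7a (0.0936), Cd22 (0.0993) and Lyz2 (0.136). Clec7a encodes the beta-glucan receptor dectin-1 of myeloid cells and Cd22 a sialic acid receptor. For Ctsk they were Tmem255b (0.0679), Ccn2 (0.0851), a matricellular growth factor, and Boc (0.103), a surface receptor. For Ctsb the closest were Mrgpre (0.0127) and Panx1 (0.0357), a membrane channel. These distances describe 6 libraries and carry no test.

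No cathepsin inhibitor was called by edgeR or DESeq2. Of 19 genes of this kind, 8 were tested, 2 had a higher and 6 a lower fitted level in SRF, and the median log2 fold change was -0.16. Cst3, the secreted inhibitor cystatin C and the most abundant of them, was 9195 ± 1240 CPM in controls and 9152 ± 1901 CPM in SRF (log2 fold change -0.01, SE 0.18). Cstb, the intracellular inhibitor cystatin B, had the highest log2 fold change, 0.08 (SE 0.15). Ctla2b, homologous to a cathepsin propeptide, had the lowest, -1.08 (SE 0.34, unadjusted p = 0.0163, adjusted p = 0.522, edgeR), at 5.15 ± 1.05 and 2.44 ± 0.661 CPM. It was the only inhibitor of the 8 with an unadjusted p under 0.05, where 2.85% of all genes were lower at that level. The ratio of Ctss to Cst3 was 3.06-fold higher in SRF, with no overlap.

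Genes that activate, sort or accompany cathepsins were called neither by edgeR nor by DESeq2. Of 13 tested, 8 had a higher and 5 a lower fitted level, with a median log2 fold change of 0.09. Lgmn, the asparaginyl endopeptidase that processes several cathepsin precursors, was highest, at 234 ± 10.4 CPM in controls and 315 ± 47.2 CPM in SRF (log2 fold change 0.43, SE 0.14, adjusted p = 0.539, edgeR). Tmem106b, a lysosomal membrane protein, was lowest, -0.21 (SE 0.13). Only Lgmn and Grn, the precursor of lysosomal granulins, had an unadjusted p under 0.05 among the 13, both higher, against 4.16% of all genes.

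The other lysosomal genes had a smaller median than the cathepsins. All 30 hydrolases and membrane proteins were tested, and their median log2 fold change was 0.05, with 21 higher and 9 lower. Laptm5, a lysosomal membrane protein of blood cells, was the only one DESeq2 called (0.88, SE 0.18, DESeq2 adjusted p = 0.00353, edgeR adjusted p = 0.289). Smpd1, acid sphingomyelinase, was lowest, -0.24 (SE 0.15). Ctso, the only other cathepsin tested, was 92.9 ± 19.7 CPM in controls and 84.3 ± 18.5 CPM in SRF (-0.14, SE 0.21), and Ctse and Ctsw were listed but under the count minimum.

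Among 8 tested regulators of lysosomal and macrophage genes, Spi1, which encodes PU.1, rose in DESeq2. It was 14.2 ± 0.124 CPM in controls and 26.3 ± 2.58 CPM in SRF (log2 fold change 0.88, SE 0.13, DESeq2 adjusted p = 0.000352, edgeR adjusted p = 0.198). Mitf, a regulator of pigment cells and the RPE that is related to TFEB, had the lowest value, -0.55 (SE 0.16, unadjusted p = 0.0111, edgeR adjusted p = 0.448). Tfeb, which encodes TFEB, had 0.53 (SE 0.21, unadjusted p = 0.0396, edgeR adjusted p = 0.665), with overlapping groups. For Tfe3 it was 0.30 (SE 0.11, unadjusted p = 0.0261, edgeR adjusted p = 0.601), with no overlap. Of the 8, 4 were higher and 4 lower. At an unadjusted p under 0.05, 3 were higher and 1 lower, against 4.16% and 2.85% of all genes.

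Genes linked to cathepsin substrates were taken from the MHC class II pathway, not all of them substrates themselves, and from the matrix. Of 9 tested genes of the MHC class II pathway, 0 were called by edgeR or DESeq2 and 0 had an unadjusted p under 0.05 in edgeR. Still, 7 had a higher and 2 a lower fitted level, with a median log2 fold change of 0.21. In 3 of the 9 the SRF libraries lay wholly above the controls in CPM, where 6.71% of all genes did so. Cd74, the invariant chain that cathepsin S cuts, was 563 ± 75.4 CPM in controls and 685 ± 12.3 CPM in SRF (log2 fold change 0.28, SE 0.13, adjusted p = 0.749, edgeR). The highest of that list was H2-DMb2 (0.74, SE 0.41) and the lowest H2-Ob (-0.11, SE 0.45). The ratio of Ctss to Cd74 was 2.47-fold higher in SRF, with no overlap. Of 13 tested matrix genes, 12 had a higher fitted level, with a median of 0.44. An unadjusted p under 0.05 was found for 4, Bcan, Col3a1, Eln and Fn1, all higher, against 4.16% of all genes. Bcan, the proteoglycan brevican, was the highest and the only one called by DESeq2 (1.53, SE 0.32, DESeq2 adjusted p = 0.00398, edgeR adjusted p = 0.298), at 3.68 ± 1.15 and 10.6 ± 2.58 CPM. Vcan, the proteoglycan versican, was the lowest (-0.15, SE 0.47).

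Of 10 granule serine proteases listed as possible targets of cathepsin C, 3 passed the count minimum, the mast cell proteases Tpsb2, Cma1 and Mcpt4. All 3 had higher fitted levels in SRF, beside -0.12 for Ctsc itself. Whether cathepsin C activates each of them was not tested. Tpsb2 was 5.79 ± 1.58 CPM in controls and 14.5 ± 0.466 CPM in SRF (log2 fold change 1.32, SE 0.24) and Cma1 was 3.61 ± 1.08 and 8.77 ± 1.48 CPM (1.27, SE 0.31). DESeq2 called both (adjusted p = 0.00144 and 0.0442) and edgeR did not (adjusted p = 0.237 and 0.380). Mcpt4 had the highest value, 1.40 (SE 0.45), and was not called. The same 3 genes are in the list of 5 mast cell markers, whose sum was between 39.2 and 44.8 CPM in controls and between 61.8 and 70.7 CPM in SRF. Kit, the receptor that mast cells need, had the lowest value of those 5, 0.10 (SE 0.12).

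**Figure D5:**
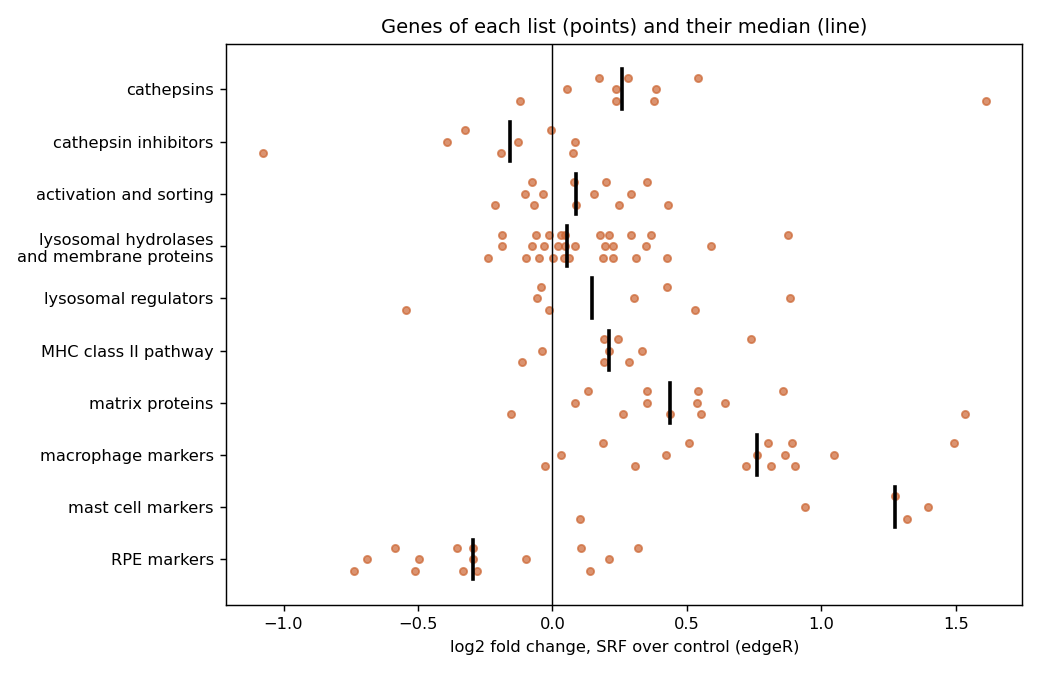
Log2 fold change, SRF over control, of each tested gene (points) in the cathepsin family and in lists of related genes and cell markers, with the median of each list (black line). The cathepsins had a median of 0.26, their inhibitors -0.16, other lysosomal genes 0.05, macrophage markers 0.76 and RPE markers -0.30.

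Most RPE markers had lower fitted levels in SRF. Of 15, 11 had a lower fitted level in SRF and 5 had an unadjusted p under 0.05, all lower, against 2.85% of all genes. DESeq2 called Rgr and Lrat, both of the visual cycle, lower (log2 fold changes -0.69 and -0.74, DESeq2 adjusted p = 6.89e-05 and 7.69e-05, edgeR adjusted p = 0.227 for both). Best1 had the highest value, 0.32 (SE 0.30). Ctsd and Ctsb, the most abundant cathepsins in this tissue, had higher means in SRF libraries whose RPE markers summed to less. The part of RPE content in any cathepsin value was not tested.

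Reads that could belong to other genes bear unevenly on the family. For Ctss, Ctsk, Ctsf and Ctsz, none of the stretches of 50 bases in the longest annotated transcript (GENCODE M21, GRCm38) occurred in transcripts of another gene. For Ctsd 36.6% did, shared with Gm49369, an annotated gene on the same strand that is not among the listed genes. For Ctsl it was 28.1%, for Ctsa 15.8% and for Ctsb 15.4%, and each of them overlaps a gene on the opposite strand. Ctsl also overlaps Gm49230, a processed pseudogene on its own strand (6.09% of the exon bases of Ctsl). Ctsl and Ctsa shared stretches with further genes that do not overlap them as well. For Ctsc and Ctsh it was 0.883% and 0.111%. Fdft1, which overlaps Ctsb, had a log2 fold change of -0.17, against 0.39 for Ctsb. Pltp and Neurl2, which both overlap Ctsa, had -0.38 (SE 0.22) and 0.57 (SE 0.37), against 0.28 for Ctsa, and Nelfcd, which overlaps Ctsz, had 0.06, against 0.24 for Ctsz. Whether counting used strand is not given in the sources used here, so these shared stretches remain uncertain. No 2 of the 10 cathepsins shared such a stretch.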

How the data were processed

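RNA of RPE-choroid was sequenced in 6 libraries, 1 per mouse. The authors filtered reads with FASTP, counted reads per gene with StringTie and deposited whole-number counts without normalization. They also deposited FPKM, scaled by transcript length and mapped reads. The aligner, genome build and strandedness are not given in the sources used here. Gene symbols came from GENCODE M21 on GRCm38, where 15659 of 15663 identifiers matched.

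Genes above 50 counts in 2 or more libraries were compared with edgeR 4.0.16 in R 4.3.3 (TMM, quasi-likelihood, group as the only term), with Benjamini-Hochberg adjustment over all of them, after the scripts had been tested on simulated counts. A call needed an adjusted p under 0.05 with 0.5 or more on the log2 scale. Each SE was derived from the edgeR test, as the absolute log2 fold change over the square root of the quasi-likelihood F. Log2 fold changes of list genes are edgeR's, also where a DESeq2 call stands beside them. DESeq2 1.42.0, limma 3.58.1, other normalizations and filters, a photoreceptor covariate, a replicate block and leave-one-out fits were alternatives. Single values were compared by exact permutation, two-sided. P-values measure only the spread between these mice. The members, lists and tests were chosen with earlier results of these data known. The genes named were the 10 members, other cathepsins in the files, each list's called, highest and lowest genes, and the 3 genes most alike for the 3 members with the largest fold changes, of which 1 is not reported here. Some others, such as list members at an unadjusted p under 0.05, the overlapping genes and the marker ratios, were named after their values were seen. At 13667310 to 24356023 counts per library, 3 counts equal 0.123 to 0.220 CPM, so counting error was small for every cathepsin.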

Additional observations from a re-analysis of the deposited data

How the results depend on the processing

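Every cathepsin except Ctsf kept its direction in all 28 alternatives. Ctsf reversed to -0.20 (edgeR) and -0.21 (DESeq2) without control mouse 1 and SRF mouse 3, and to -0.16 and -0.17 without SRF mouse 3 alone. The number of cathepsins called was 0 in edgeR and 1, Ctss, in DESeq2, in DESeq2 with a replicate block, in DESeq2 on every listed gene (added after the data were seen), and in both tools without the 2 photoreceptor-rich libraries. Leaving out 1 mouse gave 0 to 2 called, the second being Ctsk without control mouse 3. The number with an unadjusted p under 0.05 was 3 in the main test, 5 with library totals alone, 5 (edgeR) and 7 (DESeq2) with the replicate block, and 1 to 6 with 1 mouse left out. Over all genes these numbers were 943, 983, 1206 and 1060, and 446 to 2046 with 1 mouse left out. Of all genes, 1 was called in edgeR with upper-quartile factors, library totals, no filter, filterByExpr, the newer quasi-likelihood form or the photoreceptor covariate, and in limma-voom, and 2 in limma on log2(FPKM + 0.1) and on log2(FPKM + 1). DESeq2 called 153 (153 on every listed gene) and 201 with the replicate block, against 0 for edgeR with it. Without the photoreceptor-rich libraries edgeR called 154 and DESeq2 503, and leave-one-out fits called 0 to 5 genes in edgeR and 67 to 361 in DESeq2 (237, 91 and 182 without control mice 1, 2 and 3, and 153, 67 and 361 without SRF mice 1, 2 and 3). The difference in the Ctss share was 3.35 percentage points from CPM in place of FPKM, and 4.89 to 6.32 with 1 mouse left out. The causes were not tested. Same-numbered mice are different animals, and the correlations of their deviations over 13454 genes were -0.479, 0.486 and -0.300, so the block stayed out of the main design. With 3 mice a group, an exact permutation test cannot go under 0.1, and the controls had no laser.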
